A study of Homo sapiens with 9 samples.

Results

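Replication-dependent histone genes encode the core histones H2A, H2B, H3 and H4 and the linker histone H1 that package newly copied DNA. They were taken as all genes of the count table with a symbol of the HIST1 to HIST4 clusters, leaving out names that end as pseudogenes. Of 73 such names 1 was dropped, which left 72 of 26485 genes: 6 of H1, 17 of H2A, 20 of H2B, 14 of H3 and 15 of H4. The HIST1 cluster on chromosome 6 holds 55 of them, chromosome 1 (clusters HIST2 and HIST3) holds 16, and chromosome 12 (HIST4H4) holds 1. HIST2H2BA and HIST2H2BC passed the rule on names, but GENCODE lists both as transcribed pseudogenes.

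The genes were read in poly(A)-selected RNA of HEK293 cells, a human embryonic kidney line, in 9 libraries. The 3 groups, with 3 libraries each, were a CRISPR/Cas9 knockout of UBE3D (KO), the knockout carrying returned UBE3D (addback) and wild type (WT). UBE3D encodes an E3 ubiquitin ligase. The series concerns CPSF73, the endonuclease of pre-mRNA 3′ end formation, which CPSF3 encodes. The labels mark every sample as pooled, and give neither the number of clones behind KO and addback nor the promoter of the returned UBE3D. Whether replicate libraries were separate cultures is not stated either. P-values therefore measure only the spread between these libraries, which may be technical.

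Histone mRNAs of this kind are the metazoan mRNAs that end in a stem-loop instead of a poly(A) tail. Stem-loop binding protein (SLBP) and the U7 snRNP recognise the pre-mRNA, and CPSF73 cuts it just after the stem-loop. Where that cut is missed, or in cells that leave the cycle, transcripts of some histone genes run on to poly(A) signals further downstream and gain a tail. Poly(A) selection keeps those tailed transcripts and discards most of the normal ones, so the levels given here are not the total histone mRNA of the cells.

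The stem-loops are shown because they mark the normal 3′ end against which the reads are to be placed. A stem of 6 pairs with a loop of 4 bases was searched in the 100 bases after the stop codon of GENCODE v29 transcripts. It was found in 31 of the 36 members whose annotated transcript runs at least 36 bases past the stop (86.1%), beside 10 of 18264 other genes (0.0548%). There were 5 distinct forms: 17 members carried that of HIST1H2AC, 5 that of HIST1H4H, 5 that of HIST1H2BD, 3 a form not shown, and HIST1H2AG alone the last one below. In the following lines the 16 capitals are the stem-loop, read 5′ to 3′ on the gene's strand of GRCh38, and the coordinates are those of the capitals.
HIST1H2AC (chr6:26124669-26124684, plus strand): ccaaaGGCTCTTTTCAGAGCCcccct
HIST3H2A (chr1:228457369-228457384, minus strand): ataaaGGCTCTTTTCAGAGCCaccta
HIST2H2BE (chr1:149886188-149886203, minus strand): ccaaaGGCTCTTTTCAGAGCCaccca
HIST1H3H (chr6:27810516-27810531, plus strand): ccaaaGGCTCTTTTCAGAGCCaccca
HIST1H2BD (chr6:26158587-26158602, plus strand): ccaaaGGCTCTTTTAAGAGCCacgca
HIST1H4H (chr6:26285131-26285146, minus strand): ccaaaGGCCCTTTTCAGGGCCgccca
HIST1H2AG (chr6:27133515-27133530, plus strand): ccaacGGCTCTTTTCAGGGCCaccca
The GENCODE transcripts of HIST1H1C and HIST1H2BK stop too close to the coding sequence for this search. In 22 members an annotated transcript runs more than 100 bases past the stem-loop, and 20 of the 25 members with a transcript of over 200 bases after the stop have AATAAA or ATTAAA in its last 50 bases, beside 77.0% of other genes. Of the 12 members with the highest KO level, 8 have such a transcript. The median KO level was 3.59 scaled CPM in the 16 members with such a transcript and counts. It was 0.632 in the 50 members with counts and no such annotated transcript. Many of those 50, HIST1H2BK and HIST1H1C among them, have no annotated bases after the stop and could not be searched. Both medians are a description of these annotations and libraries. Scaled CPM means counts divided by the scaled library size and expressed in CPM, after scaling the libraries on genes with little background, as set out further on.

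The promoters of 5 well-read members are shown because members of the same type share promoter letters while their levels differ widely. RefSeq (GRCh38.p14) gave a start for 65 members, and 250 bases before it were searched on both strands for the TATA box (TATAAA), the box bound by NF-Y (CCAAT) and the octamer of H2B genes (ATTTGCAT), none of which contains another. TATAAA was found in 66.2% of members (10.6% of other promoters), CCAAT in 84.6% (31.9%) and ATTTGCAT in 38.5% (1.56%). The octamer was found in 68.8% of H2A and 77.8% of H2B promoters and in 0 of the 6 H1, 12 H3 and 13 H4 promoters. Some H2A and H2B genes lie head to head, such as HIST1H2BC (minus strand, from 26123904) and HIST1H2AC (plus strand, from 26124145). Their windows can share bases, so 1 octamer can count for both genes, and the H2A and H2B shares are not separate. CCAAT was in every H1, H2A, H2B and H3 promoter and in 23.1% of those of H4. In the following lines, the 120 bases before the start, capitals mark these letters or the reverse complement of CCAAT.
HIST1H2BK (chr6:27146856-27146975, minus strand): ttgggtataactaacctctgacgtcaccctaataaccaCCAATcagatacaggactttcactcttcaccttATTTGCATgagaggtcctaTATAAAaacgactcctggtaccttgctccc
HIST1H2AC (chr6:26124052-26124171, plus strand): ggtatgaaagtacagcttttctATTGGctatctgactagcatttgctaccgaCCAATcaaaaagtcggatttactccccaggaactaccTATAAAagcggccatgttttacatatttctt
HIST1H1C (chr6:26056471-26056590, minus strand): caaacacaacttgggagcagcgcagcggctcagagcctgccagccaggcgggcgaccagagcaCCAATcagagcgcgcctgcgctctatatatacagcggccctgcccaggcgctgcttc
HIST3H2A (chr1:228457874-228457993, minus strand): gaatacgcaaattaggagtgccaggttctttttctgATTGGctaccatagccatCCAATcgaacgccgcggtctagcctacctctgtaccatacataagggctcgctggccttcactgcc
HIST1H4H (chr6:26285535-26285654, minus strand): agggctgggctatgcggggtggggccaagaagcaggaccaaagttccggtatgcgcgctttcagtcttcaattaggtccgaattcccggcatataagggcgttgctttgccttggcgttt
HIST1H2BK holds all 3 motifs in this window, and HIST1H4H none of them. A match describes letters only.

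Several members cannot be read apart. HIST2H4A and HIST2H4B, HIST2H3A and HIST2H3C, and HIST2H2AA3 and HIST2H2AA4 share 100% of their annotated bases in pairs and stood at 0 counts in all 9 libraries, so these 6 give no level. HIST1H2AD shares 85.3% of its bases with HIST1H3D and had too few counts to test. The remaining 65 members were tested. For the members with the most reads, the longest run of identical coding bases shared with another member of their type was measured. It was 90 in HIST1H2BK, 56 in HIST1H2AC, 47 in HIST3H2A and 35 in HIST1H1C. Runs broken by a mismatch were not joined, so these values do not give the similarity of whole coding sequences. HIST1H2AI and HIST1H2AJ share a run of 332 bases, so their levels are uncertain. HIST1H4J and HIST1H4K have the same coding sequence of 312 bases, and HIST2H2BE shares a run of 140 of its 381 coding bases with HIST2H2BF, so these levels are uncertain too.

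The libraries held 23088295 to 37508780 counts, of which 6298 to 17100 fell on members (0.0215% to 0.0465%). UBE3D stood at 13.2, 15.8 and 14.5 scaled CPM in KO, 3347, 3292 and 2745 in addback, and 19.5, 21.4 and 26.6 in WT. KO and WT differed by -0.62 on the log2 scale (adjusted p = 0.00415, edgeR), and by -0.28 with TMM factors over all tested genes (adjusted p = 0.142). The 12 markers fixed for HEK293 cells summed to 2934 to 3243 scaled CPM in KO, 2503 to 2684 in addback and 2574 to 2673 in WT. WT and addback libraries, unlike KO libraries, held reads on the coding sequence of genes that these cells should not express. Over 578 tissue-restricted genes, the median of counts per coding kilobase was 0 in all 3 KO libraries, 23.7, 110.6 and 105.5 in addback 1, 2 and 3, and 26.1, 87.4 and 99.5 in WT 1, 2 and 3. The testis germ cell markers moved the same way, from 1.00 to 1.24 scaled CPM in KO (DAZL, PRM1, PRM2 and TNP1 at 0) to 9.31 to 43.5 in WT and 5.86 to 21.3 in addback. Summed levels of 8 breast epithelial markers were 32.4 to 37.4 in KO (TFF1 at 0), 51.3 to 82.2 in addback and 46.5 to 89.9 in WT. The 6 fibroblast markers gave 51.2 to 58.8, 76.4 to 148 and 66.4 to 162, and the 6 blood markers 27.4 to 33.7, 44.0 to 74.9 and 36.8 to 96.8, in that order of groups. A member is called low-background here where this background, estimated from its coding length, came to at most 10% of its mean level over the 3 groups: 8 of 72 members qualified, of 7136 genes in all. That mean includes KO, so a member can qualify through a high KO level. HIST1H2AC, HIST1H2BD, HIST1H3H and HIST1H4H did not qualify when the same background was set against the level of their lowest group, and in WT their background was 20.9%, 15.8%, 17.1% and 22.9% of the WT level. HIST1H2BK, HIST1H1C, HIST3H2A and HIST2H2BE did qualify so, with 1.37%, 7.43%, 3.14% and 11.9% in WT, where HIST2H2BE passed because the background compared was the mean over all libraries.

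A few histone genes supplied most of the histone reads in KO cells. HIST1H2BK alone held 39.7% of the members' summed KO level, the 3 leading members 68.7% and the 12 leading members 88.9%. The same 12, chosen by their KO level, held 68.2% in addback and 55.9% in WT, where the sums over members include an estimated background of 74.2 and 73.2 scaled CPM (0 in KO). In bulk RNA, fewer cells that express a gene and less of its RNA per cell cannot be told apart. Per kilobase of counted exon, HIST1H2BK led in KO with 206 scaled CPM, followed by HIST1H1C with 106, HIST3H2A with 98.7, HIST1H2AC with 39.4, HIST1H3H with 22.5 and HIST1H4H with 21.2. Grouped by KO level, all 7 members at 10 scaled CPM or more in KO were above WT with no overlap of libraries, and so were 2 of the 25 members between 1 and 10, which makes 9 of 65 tested beside 12.1% of all genes. Members below WT without overlap were 4 of those 25, 13 of the 22 between 0.1 and 1, and 11 of the 11 tested under 0.1, or 28 of 65 beside 58.4% of all genes. Sorting by the KO level favours members above WT among the high ones and below WT among the low ones, so the order of these groups is a description only.

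**Figure D1:**
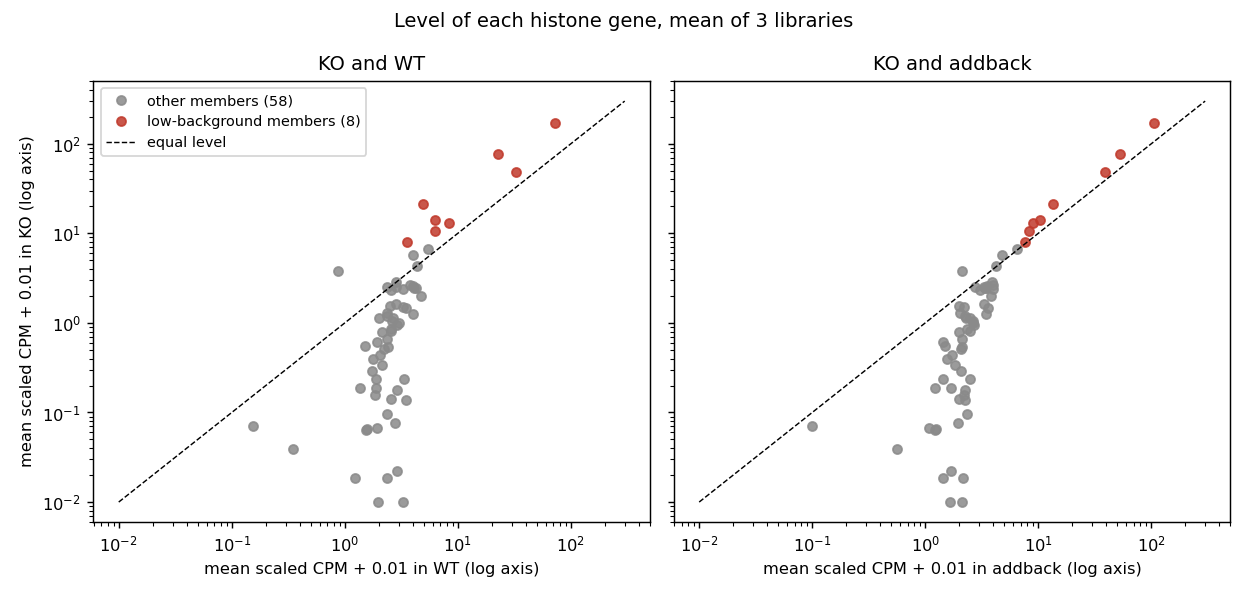
Mean scaled CPM of each of the 66 histone genes with counts, KO on the vertical axis against WT (left) or addback (right) on the horizontal axis; both axes are logarithmic, 0.01 was added for drawing, points are means of 3 libraries and the dashed line marks equal levels. The 8 low-background members (red) lie on or above the line, while the other members form a near-vertical band whose WT and addback levels are mostly between 1 and 5 whatever the KO level.

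In the test across all genes, 9 of 65 members were called higher in KO than in WT (adjusted p under 0.05), while 9.52% of all 21994 genes tested were. Lower calls numbered 29 of 65, beside 52.4% of all genes. The median log2 fold of the members was -1.45, and that of all genes tested was -0.47. Of the 9 higher calls 8 were low-background members, and 23.3% of low-background genes were higher and 26.4% lower with a median of -0.02. The libraries were scaled on these genes, which holds that median near 0. A high KO level helped some of the 8 to qualify, so their count does not bear on the direction. The 4 that qualified against their lowest group were all called higher, with a median of 0.95. The 8 calls fell to 5 without KO 1 and to 5 without KO 3, since HIST2H2BE, HIST1H3H and HIST1H4H then missed the threshold. Every exact permutation test of 3 against 3 libraries can reach only 0.1, which all members without overlap reached.

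HIST1H2BK, which encodes an H2B with a long spliced form (chr6:27138293-27146858, minus strand, 839 counted bases), was the most abundant member. It stood at 174, 170.1 and 173 scaled CPM in KO, 112, 99.7 and 103 in addback and 73.1, 70.6 and 73.8 in WT. The 3 groups did not overlap, and the libraries within each lay close together. KO exceeded WT by a log2 fold of 1.25 ± 0.04 (standard error, adjusted p = 6.87e-06). The estimated background was 0.554% of its level, the lowest share among members with an estimate.

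HIST1H2BD, another H2B gene (chr6:26158121-26171348, plus strand), showed the same order at a lower level. Its libraries stood at 15.2, 12.3 and 14.5 in KO, 9.70, 10.1 and 11.1 in addback and 4.40, 6.75 and 7.66 in WT. KO was above WT by 1.16 ± 0.23 (adjusted p = 0.00287). HIST2H2BE, the H2B gene of the chromosome 1 cluster with a long annotated 3′ end (chr1:149884460-149886682, minus strand), stood at 14.1, 11.1 and 14.3 in KO, 7.78, 9.48 and 9.72 in addback and 7.12, 9.29 and 8.61 in WT. KO was above both other groups without overlap, by 0.66 ± 0.20 against WT (adjusted p = 0.0164). That call was lost without KO 1 (adjusted p = 0.0733) or KO 3 (adjusted p = 0.0771).

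HIST1H1C, which encodes the linker histone H1.2 (chr6:26055740-26056471, minus strand), was the only H1 gene called higher. It gave 81.9, 70.5 and 79.5 scaled CPM in KO, 53.8, 53.0 and 52.6 in addback and 24.0, 20.3 and 23.4 in WT. All 3 groups were separate. The log2 fold of KO against WT was 1.78 ± 0.08 (adjusted p = 8.89e-06).

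Of the H2A genes, HIST1H2AC and HIST3H2A were called higher. HIST1H2AC (chr6:26124145-26124690, plus strand), whose counted stretch ends just after the stem-loop shown above, stood at 23.7, 19.8 and 21.1 in KO, 13.6, 12.9 and 13.8 in addback and 3.80, 5.57 and 5.37 in WT. No library of 1 group reached another group, and KO exceeded WT by 2.13 ± 0.17 (adjusted p = 0.000132). HIST3H2A, the H2A gene of the HIST3 cluster (chr1:228457364-228457859, minus strand), gave 54.0, 42.3 and 50.7 in KO, 41.3, 38.8 and 37.4 in addback and 34.0, 33.4 and 30.5 in WT. Its groups were separate too but closer, with 0.58 ± 0.09 between KO and WT (adjusted p = 0.00152).

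HIST1H3H was the only H3 gene and HIST1H4H the only H4 gene called higher. HIST1H3H (chr6:27810064-27810536, plus strand) stood at 11.0, 10.3 and 10.7 in KO, 6.96, 8.15 and 9.52 in addback and 4.40, 7.19 and 7.21 in WT. Addback overlapped WT but not KO, and KO exceeded WT by 0.77 ± 0.25 (adjusted p = 0.0253). HIST1H4H (chr6:26285126-26285499, minus strand) gave 8.52, 6.42 and 8.81 in KO, 7.14, 7.34 and 8.57 in addback and 1.58, 4.65 and 4.42 in WT. Addback overlapped KO and lay above every WT library, and KO exceeded WT by 1.16 ± 0.40 (adjusted p = 0.0330). Both calls were lost when any 1 KO library was left out, with adjusted p of 0.0644 to 0.0819 for HIST1H3H and 0.0523 to 0.0987 for HIST1H4H.

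The ninth member called higher was HIST2H2BC, a transcribed pseudogene with no coding length and so no background estimate (chr1:149850192-149850773, minus strand). It stood at 4.30, 2.59 and 4.61 in KO, 1.99, 1.75 and 2.61 in addback and 0.504, 0.837 and 1.22 in WT. KO was above WT without overlap by 2.17 ± 0.50 (adjusted p = 0.00523), and KO 2 was just under addback 3. Of the 12 members highest in KO, 3 were not called. HIST1H2BJ, an H2B gene, averaged 6.65 ± 0.260 (SD, n = 3) in KO and 5.41 ± 1.87 in WT. HIST1H2AI averaged 5.78 ± 0.507 and 4.03 ± 1.82, and HIST1H2AG 4.30 ± 0.736 and 4.36 ± 1.10. Their log2 folds were 0.30 ± 0.33, 0.52 ± 0.40 and -0.02 ± 0.35. In all 3 the WT libraries overlapped those of KO, with WT 1 the lowest WT library.

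**Figure D2:**
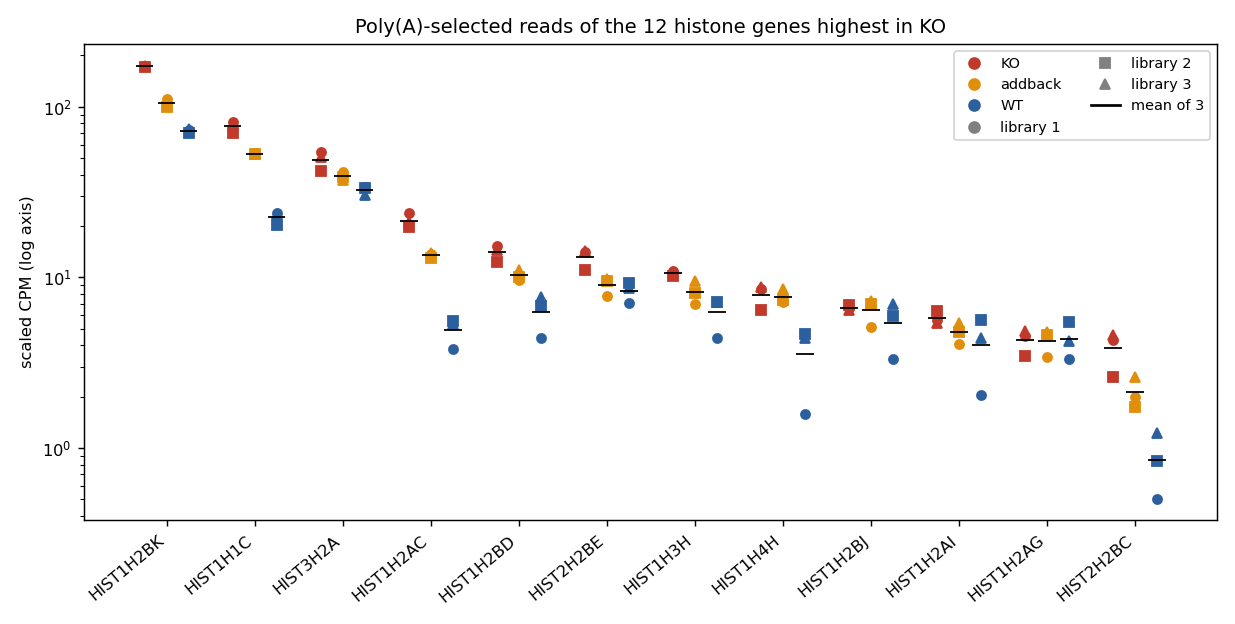
Scaled CPM (logarithmic axis) of the 12 histone genes with the highest KO mean in each of the 9 libraries; colour gives the group, marker shape the library number, and the black line the mean of 3. HIST1H2BK, HIST1H1C, HIST3H2A and HIST1H2AC show 3 separate groups with KO highest, whereas HIST1H2BJ, HIST1H2AI and HIST1H2AG overlap.

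With UBE3D put back, fewer members were called lower than higher, and most higher calls were lost when background was subtracted. In addback against KO, 5 of 65 members were called lower, beside 7.69% of all genes tested, and 24 higher, beside 49.1%. The members' median was 1.35 and that of all genes 0.45. All 5 lower calls were low-background members (19.9% of low-background genes were lower and 18.4% higher), a class that a high KO level helps to enter. The 4 that qualified against their lowest group were all called lower, with a median of -0.54, and 2 of the 4 were without KO 1, without KO 3 or without addback 3. HIST1H2BK differed by -0.72 ± 0.04 (adjusted p = 4.10e-05), HIST1H2AC by -0.68 ± 0.17 (adjusted p = 0.00825), HIST2H2BE by -0.55 ± 0.19 (adjusted p = 0.0373), HIST1H1C by -0.54 ± 0.07 (adjusted p = 0.00189) and HIST3H2A by -0.32 ± 0.09 (adjusted p = 0.0155). HIST1H2BD (-0.44 ± 0.23), HIST1H3H (-0.38 ± 0.25), HIST1H4H (-0.04 ± 0.40) and HIST2H2BC (-0.86 ± 0.48) did not pass. The 5 lower calls became 3 without KO 1, without KO 3 or without addback 3. The 24 higher calls became 4 with the estimated background subtracted and 0 with 2 times that estimate subtracted. The filter on low counts was run again after each subtraction, so members that it dropped were not tested and could not be called. KO against WT and addback against KO share the KO libraries, so the 2 sets of folds are not independent.

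For 3 members the addback level stayed above that of WT. In addback against WT, 3 of 65 members were called higher (4.39% of all genes tested) and 0 lower (4.89%), with medians of -0.12 for members and 0.00 for all genes. At an unadjusted p under 0.05, edgeR gave 7 higher and 0 lower, and DESeq2 at its adjusted threshold gave 5 and 0. No share over all genes stands beside these counts, so they do not compare members with genes in general. HIST1H2AC was above WT by 1.46 ± 0.17 (adjusted p = 0.000937), HIST1H1C by 1.24 ± 0.08 (adjusted p = 3.29e-05) and HIST1H2BK by 0.53 ± 0.04 (adjusted p = 0.000140). HIST1H2BD (0.71 ± 0.23, adjusted p = 0.0991), HIST1H4H (1.11 ± 0.40, adjusted p = 0.152) and HIST3H2A (0.26 ± 0.09, adjusted p = 0.144) did not pass, nor did HIST2H2BE (0.11 ± 0.19) and HIST1H3H (0.39 ± 0.25). HIST2H2BC gave 1.31 ± 0.49 (adjusted p = 0.164), and 1.32 with an adjusted p of 0.0454 when the replicate number entered as a block.

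**Figure D3:**
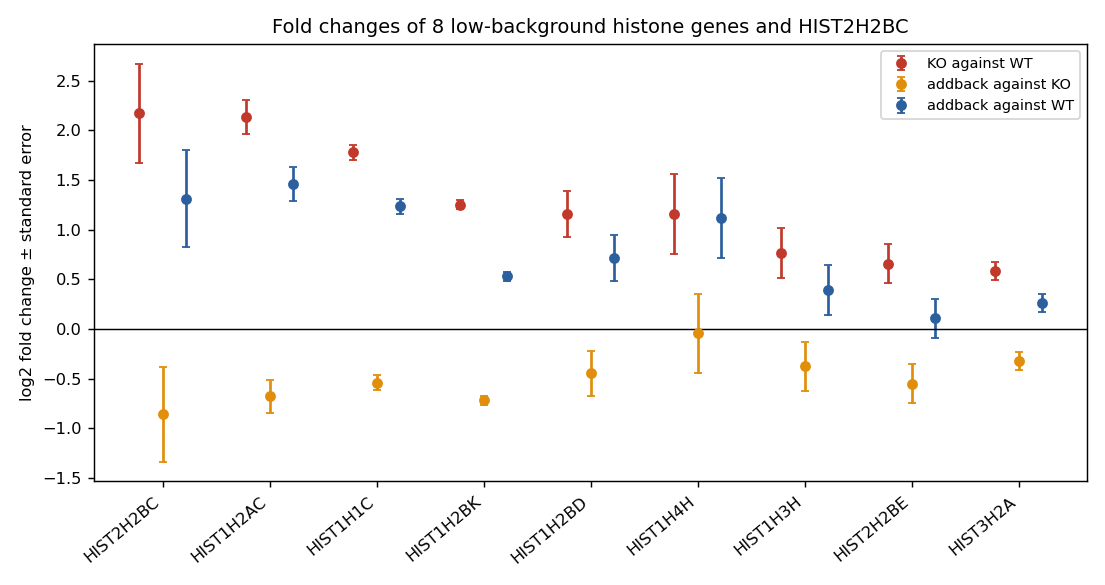
Log2 fold change with its standard error (bars) from the fit over all 9 libraries, for the 8 low-background histone genes and HIST2H2BC, in KO against WT (red), addback against KO (orange) and addback against WT (blue). All 9 red points lie above 0, from 0.58 for HIST3H2A to 2.17 for HIST2H2BC, and HIST1H4H has the smallest difference between addback and KO.

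The 29 members called lower in KO were scarce there, and WT levels were low as well. Their KO means had a median of 0.167 scaled CPM, with 26 of 29 under 1 and the highest at 1.98 (HIST2H2AC). Their WT means ran from 0.337 to 4.68 and their addback means from 0.552 to 3.83, and the estimated background was 19.3% to 218% of their mean level. When the estimated background was subtracted, 7 members were called lower, and 1 when it was subtracted at 2 times its estimate. Members dropped by the filter on low counts, run again on the subtracted counts, could not be called. The lower calls also numbered 19 without KO 3, 19 without WT 2 and 15 with WT 1 and addback 1 as the only libraries of their groups, with 16 higher in that last fit. By type, 3 of 6 H1, 6 of 14 H2A, 5 of 20 H2B, 8 of 12 H3 and 7 of 13 H4 genes were among the 29.

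The 5 members furthest below WT were HIST1H4L, HIST1H4F, HIST1H3G, HIST1H2BI and HIST1H2AA. HIST1H4L, an H4 gene, had 0 counts in every KO library, 22, 83 and 85 in addback 1 to 3 and 15, 200 and 78 in WT 1 to 3. Against a floor of 3 counts over the 3 KO libraries, its WT level was at least 101-fold and its addback level at least 65.6-fold higher. HIST1H4F, likewise at 0 in KO, was higher by at least 60.5-fold in WT and at least 50.7-fold in addback. HIST1H3G, HIST1H2BI and HIST1H2AA had 1 count each over the KO libraries, and 7 to 145 per WT library. In every one of the 5, library 1 held the fewest counts of its group in both WT and addback, and library 1 also had the lowest background on tissue-restricted genes in both groups. The part of that background in these lower calls was measured only through the subtractions given above.

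The testis histone genes give a comparison from within the family. HIST1H1T, HIST1H2AA, HIST1H2BA and HIST3H3 encode variants known from the male germ line. Their counts together were 11, 8 and 15 in KO 1 to 3, 58, 214 and 210 in addback, and 48, 280 and 135 in WT. All 4 were called lower in KO than in WT (adjusted p = 0.00393, 0.00363, 0.0160 and 0.00776), and HIST1H1T went from 7, 3 and 3 counts in KO to 21, 81 and 55 in WT. Their counts per kilobase of coding sequence in WT and addback were 0.753 to 1.78 times the median of the tissue-restricted genes in the same library. With a background measured on these 4 genes subtracted, 9 members were higher and 7 lower in KO than in WT. The 4 genes are themselves among the members called lower, so this subtraction lowers their own levels by construction.

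The 27 tested members that were not called lay between these classes. Their KO means ran from 0.433 to 6.65 scaled CPM and their log2 folds from -2.22 to 0.52, with 23 below 0. By cluster, 6 of 54 tested HIST1 genes were higher and 26 lower, 2 and 2 of 7 in HIST2, 1 and 1 of 3 in HIST3, and HIST4H4 was not called.

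Summed over members, the types differed in which group stood highest. H1 genes summed to 73.8 to 86.0 scaled CPM in KO, 60.1 to 68.8 in addback and 29.1 to 39.0 in WT, and H2B genes to 222 to 235, 158 to 178 and 103 to 146. For both, the KO libraries lay above all others, but a single gene held much of each sum. HIST1H1C averaged 77.3 of a mean H1 sum of 81.2 in KO, and 22.6 of 35.1 in WT. HIST1H2BK averaged 172 of a mean H2B sum of 230 in KO, and 72.5 of 130 in WT. These sums therefore do not describe the other H1 and H2B genes. H2A genes gave 82.6 to 96.6, 77.5 to 91.6 and 53.0 to 86.7, with overlap between groups. H3 genes gave 17.1 to 18.6 in KO, 18.9 to 38.7 in addback and 13.6 to 49.7 in WT, and H4 genes 12.9 to 17.7, 19.4 to 43.3 and 13.1 to 50.2. The estimated background in WT averaged 10.3 for H1, 17.4 for H2A, 18.4 for H2B, 15.0 for H3 and 12.1 for H4, so it formed a larger share of the H3 and H4 sums.

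Reads beyond the histone genes were summarised by the authors as downstream-of-gene regions, which begin after a gene's end and, for many of these hosts, stop at the next gene. In the authors' deposited table of KO against WT, 17 distinct regions belong to members, and 5 of them have a base mean (the authors' mean normalised count) under 1. The authors' adjusted p was under 0.05 for 7 higher regions, beside 24.8% of all 2541 regions, and for 1 lower region, beside 25% of all. All 7 had a log2 fold of at least 1, which 6.97% of all regions had at any p. HIST1H2AG and HIST1H4J, with base means under 1, had folds past 1 that did not pass. In the authors' deposited table of addback against KO, 0 of 15 were higher (18.6% of 2396 regions) and 4 lower (15.5%). Those tables hold no value per library, and their folds are not on one scale between the tables.

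The region after HIST1H2AC (chr6:26124691-26156332, 31642 bases) starts where the counted gene ends and stops at HIST1H1E. The authors' deposited tables give it a log2 fold of 2.03 for KO against WT (adjusted p = 2.38e-107) and -0.36 for addback against KO. The region after HIST1H4H (chr6:26273412-26285126) gave 1.96 and -0.12 in the authors' deposited tables, and that after HIST2H2BC (chr1:149842751-149850192) 1.88 and -0.57. HIST2H3A and HIST2H3C, at 0 in the gene counts, have a joint entry listed at 2 places with the same values, 1.87 and -0.58 in the authors' deposited tables. The region after HIST1H2BD (12449 bases) gave 1.58 and -0.22, and that of HIST1H2BJ (108343 bases) 1.06 and -0.15, in the authors' deposited tables. HIST1H2BG, an H2B gene whose own counts did not pass (-0.14 ± 0.49), had a region at 1.40 in KO against WT and 0.02 in addback against KO in the authors' deposited tables. Among the higher regions, those of HIST1H2AC, HIST1H4H, HIST2H2BC and HIST1H2BD have hosts that were called higher themselves. The hosts HIST1H2BG and HIST1H2BJ were not called, and HIST2H3A and HIST2H3C have no counts.

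The other regions did not pass as higher. In the authors' deposited table of KO against WT, HIST1H2BF had a log2 fold of 0.01, with -0.08 for HIST1H2BM, -0.21 for HIST4H4, -0.39 for HIST1H2AK (adjusted p = 0.0680) and -0.35 for HIST1H2BN (adjusted p = 0.0170, the lower call). HIST1H1D and HIST1H3E, and likewise HIST1H2BK and HIST1H2AG, face each other, so their regions cover nearly the same bases. In the authors' deposited table all 4 had base means under 1, as did HIST1H4J. Many regions hold exons of the host's own longer GENCODE transcripts: 1122 bases for HIST1H2AC, 1651 for HIST1H4H, 5695 for HIST2H2BC and 1043 for HIST1H2BG. Exons of other genes, on either strand, covered 48.5% of the HIST2H2BC region and 19.4% at each place of HIST2H3A and HIST2H3C. They covered 14.2% for HIST1H2BD, 9.10% for HIST1H2BG, 3.12% for HIST1H2BJ, and 0% for HIST1H2AC and HIST1H4H. Annotated long forms and reads past every annotated end cannot be told apart in these tables.

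**Figure D4:**
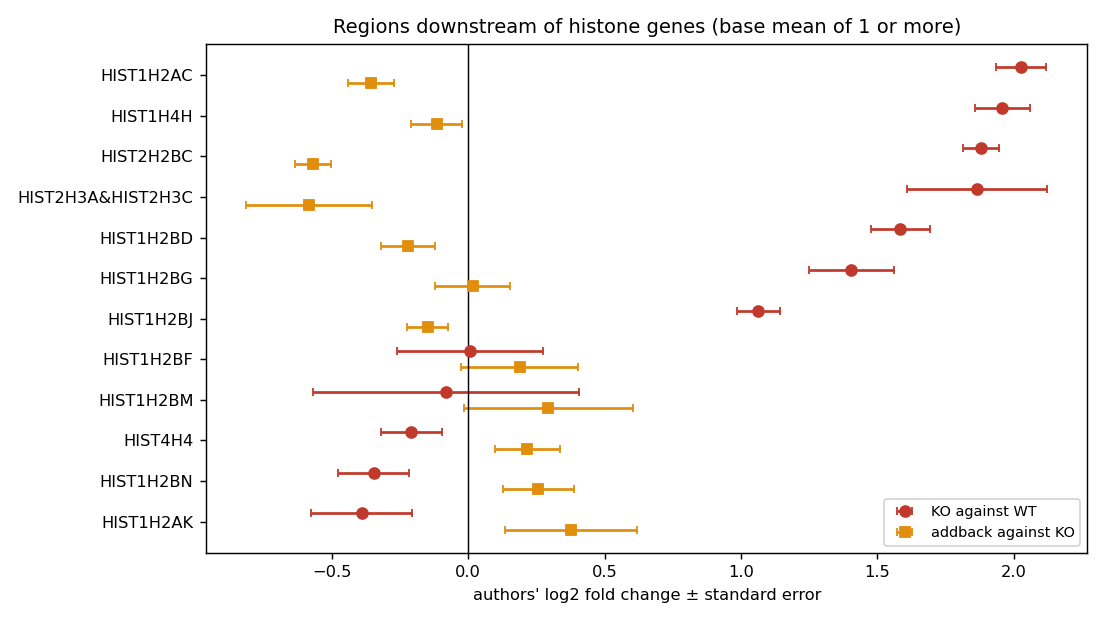
Authors' log2 fold change with standard error (bars) for the 12 downstream regions of histone genes with a base mean of at least 1, KO against WT (red circles) and addback against KO (orange squares). In KO against WT, 7 regions lie at or above 1 and 5 near or below 0; the folds of the 2 comparisons come from separate tables and are not on one scale.

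Genes whose products make, use or degrade histone mRNA changed in both directions, and how many did depended on the scaling. SLBP, which binds the stem-loop, averaged 85.9 scaled CPM in KO, 88.3 in addback and 78.3 in WT (KO against WT 0.13 ± 0.06, adjusted p = 0.0755). CPSF3, the endonuclease gene, averaged 119, 111 and 108 (0.14 ± 0.04, adjusted p = 0.0133), and LSM11, of the U7 snRNP, 40.1, 35.7 and 34.7 (0.21 ± 0.07, adjusted p = 0.0219). NPAT, the coactivator of histone gene transcription, averaged 33.3, 39.5 and 46.2 (-0.47 ± 0.12, adjusted p = 0.00907). NPAT was not a low-background gene: its estimated background was 0, 11.8 and 11.7 in the same order of groups. The part of that background in this call was not tested. GON4L, also of the processing and transcription list, averaged 65.6, 92.0 and 91.7 (-0.48 ± 0.17, edgeR adjusted p = 0.0392). GON4L was not low-background either, with an estimated 0, 18.3 and 18.1, and the part of that in its call was not tested. With TMM factors over all tested genes GON4L gave -0.12 (edgeR adjusted p = 0.407). NCBP1, of the cap-binding complex, was the processing gene with the largest change at -0.60 ± 0.06, and stood at 76.6, 81.9 and 77.4 in KO and 111, 117 and 130 in WT. With TMM factors over all tested genes, which raise every fold of KO against WT by about 0.34, NCBP1 gave -0.26 (adjusted p = 0.0253), NPAT -0.12 (adjusted p = 0.326) and SLBP 0.47 (adjusted p = 0.00726).

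The counts that follow stand beside 9.52% higher and 52.4% lower calls among all genes tested, and 23.3% and 26.4% among low-background genes, to which 29 of the 34 processing, 8 of the 15 decay, 8 of the 15 variant, 23 of the 25 chaperone and 46 of the 47 S phase genes belong. Of 34 processing and transcription genes, 11 were higher and 8 lower in KO than in WT, and with TMM factors over all tested genes 24 and 1. Of 15 genes for histone mRNA decay, 5 were higher and 2 lower (10 and 1 with the other factors), among them LSM1 (0.32) and ZCCHC6 (-0.91), a uridylyltransferase. ZCCHC11, of the same enzyme family, gave -0.29 and 0.05 with the other factors. Neither ZCCHC6 nor ZCCHC11 had a matched coding length, so no background was estimated for them. Of 15 replication-independent histone variants, 3 were higher and 5 lower (6 and 4), and the 3 named by the largest fold, H1FOO, H2BFWT and H2BFM, are germ line genes with at most 11 counts in any KO library. Of 25 histone chaperones, 9 were higher and 6 lower (17 and 0), with SUPT16H at 0.34, SUPT6H at 0.31 and NPM1 at 0.31. Of 47 genes of S phase and DNA replication, 16 were higher and 10 lower (30 and 1), with UNG at 0.43, POLA2 at -0.60 and GINS2 at -0.32, which was 0.00 with the other factors. The median log2 folds of these lists were 0.03 for processing, 0.02 for decay, -0.11 for variants, 0.03 for chaperones and 0.03 for S phase, beside -0.47 for all genes tested and -0.02 for low-background genes. Scaling on low-background genes holds their median near 0, and that of lists made mostly of them. With TMM factors over all tested genes the list medians were 0.37, 0.35, 0.22, 0.36 and 0.37 in the same order, beside -0.12 for all genes tested. In addback against KO the counts of higher and lower genes were 4 and 11 for processing, 2 and 5 for decay, 7 and 4 for variants, 3 and 10 for chaperones and 12 and 14 for S phase, beside 49.1% higher and 7.69% lower among all genes tested and 18.4% and 19.9% among low-background genes. With the other factors they were 0 and 22, 0 and 10, 4 and 5, 0 and 18, and 0 and 24. In addback against WT they were 2 and 3, 1 and 0, 2 and 3, 1 and 4, and 5 and 4, in the same order of lists, beside 4.39% and 4.89% among all genes tested and 10.3% and 12.8% among low-background genes.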

How the data were processed

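Members and gene lists were chosen with earlier results of these data known. Poly(A) RNA of 9 HEK293 samples was sequenced, per the labels. The submitters' processing notes name cutadapt 1.8.1, STAR 2.5.2b, DESeq2 and hg38, without their roles. Counter, annotation and region finder: not given in the sources used here. Deposited by the authors were counts per gene with gene lengths in bases, and tables of genes and regions with base means (a signal), log2 folds and their errors, test scores, p-values and adjusted p-values. No sample column went unused (0).

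Counts were fitted with edgeR 4.0.16 (R 4.3.3): filterByExpr left 21994 genes, and 1 robust quasi-likelihood fit over all 9 libraries with genotype alone was tested per contrast, adjusted by Benjamini-Hochberg over all genes. TMM factors from low-background genes scaled the library sizes. These are genes whose estimated background (the median density of counts on the coding sequence of tissue-restricted genes, times coding length from GENCODE v29) was at most 10% of the mean level and whose coding sequence was at least 10% of the exons. The script was tested on simulated data. Values are given for the 12 members highest in KO, every low-background member, 4 testis histones, the 5 largest folds each way, members named in region tables, and of each list the 3 called genes with the largest fold plus SLBP, NPAT, CPSF3 and LSM11. Region starts were raised by 1 base. Residuals of same-numbered libraries correlated at 0.89, 0.60 and 0.74 for addback against WT over all tested genes. Over low-background genes these values were 0.57, 0.29 and 0.63. In both comparisons with KO the correlations were -0.05 to 0.02 over all tested genes and 0.01 to 0.19 over low-background genes. The main fit used no pairing, also for addback against WT, and the number entered only in the replicate block. Whether background shared by same-numbered libraries made these correlations was not tested. The labels do not say what a number marks. No pair of libraries was a copy (chi-square over its degrees of freedom: 1.69 to 43.6). Alternatives were other scalings, DESeq2 1.42.0, no filter on low counts, background subtraction, low-background genes alone, the replicate block and leaving out each library; 2 more were added after seeing the data.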

Additional observations from a re-analysis of the deposited data

How the results depend on the processing

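The 8 low-background members, some of which qualified through their KO level, were called higher in KO than in WT in every alternative that kept all KO libraries. Leaving out each library in turn gave 5 to 8 of these calls, 3 to 6 lower calls of addback against KO and 3 to 4 higher calls of addback against WT. For the 4 that qualified against their lowest group it gave 3 to 4, 2 to 4 and 2 to 2. Over all members it gave 6 to 9 higher and 19 to 42 lower calls in KO against WT, 18 to 35 higher and 3 to 6 lower in addback against KO, and 3 to 4 higher and 0 lower in addback against WT. The counts in this section stand without the matching share over all genes tested, so they do not compare members with genes in general.

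Subtracting the estimated background left 7 lower calls in KO against WT and 4 higher in addback against KO, 2 times the estimate left 1 and 0, and low-background genes alone gave 0 and 0, since few members were then tested. The background measured on 4 testis histone genes, chosen after seeing the data, left 7 and 5. Those 4 genes are members themselves, so their own levels were lowered by construction. After every subtraction the filter on low counts was run again, so members that it dropped could not be called. With WT 1 and addback 1 as the only libraries of their groups, also chosen after seeing the data and with the lone libraries assumed to vary like KO, there were 16 higher and 15 lower calls in KO against WT and 8 lower in addback against KO. DESeq2 gave 8 lower calls in addback against KO. Higher calls in addback against WT numbered 5 with DESeq2, 6 with low-background genes alone and 5 with the testis background, all of low-background members, and 11 with the lone libraries, of which 6 were low-background members.

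With the replicate number as a block, 9 members were higher and 35 lower in KO against WT, 33 higher and 5 lower in addback against KO, and 4 higher in addback against WT. The call of HIST2H2BC in addback against WT was the only one among the named members that the block changed.

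Of the folds followed for named members, 3 that were not called changed sign; other members were not followed. HIST1H2AG in KO against WT gave 0.33 with TMM factors over all genes, 0.24 with DESeq2, 0.36 and 0.89 with background subtracted once and at 2 times, 0.39 with the testis background, 0.38 with the lone libraries, 0.00080 with the replicate block, and -0.16 (without WT replicate 1) to 0.19 (without WT replicate 2) when 1 library was left out. HIST1H4H in addback against KO ran from -0.17 (without KO replicate 2) to 0.041 (without KO replicate 3), above 0 also without KO replicate 1 or addback replicate 1. HIST1H2BG in KO against WT gave 0.25 with TMM factors over all genes, 0.15 with DESeq2, 0.58 and 2.02 with background subtracted once and at 2 times, 0.63 with the testis background, 0.92 with the lone libraries (called higher there, edgeR adjusted p = 0.0158), and -0.46 (without WT replicate 1) to 0.22 (without WT replicate 3) when 1 library was left out. The cause was not tested. Depth limits what can be said of members at 0 to 3 counts in KO.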
